A study of Rattus norvegicus with 10 samples.

Results

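The HOX genes of the rat were followed in epithelial cells of the distal colon, in 5 rats on control chow and 5 rats on the same chow with 1% w/w sodium cholate, the salt of a primary bile acid. A row was taken as a HOX gene when its symbol was Hox followed by a cluster letter (a to d) and a paralog number, which gave 41 rows of 23422. They hold 39 symbols, because some HOXA symbols have more than 1 row. The animals were male Wistar Munich rats, 12 in all and 6 per diet, kept for 3 days of acclimatization in metabolic cages before 10 days on the diets. Cells were shaken loose with EDTA from inverted sacs of the last stretch of the colon, and libraries were made for the 5 rats per diet whose extracts held the most RNA, a choice that was not random. The groups are therefore control rats 1, 2, 5, 6 and 9 and cholate rats 3, 4, 7, 8 and 11, with 1 library per rat.

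HOX genes encode homeodomain transcription factors that give the segments of the body axis, the gut tube included, their position along the head to tail line. They lie in 4 clusters, HOXA to HOXD, and within a cluster genes of low paralog number act towards the head and genes of high number, paralogs 9 to 13, towards the tail. In the gut the latter belong to the hindgut, from which the distal colon forms, and adult intestinal epithelium keeps part of that positional code. HOX proteins bind DNA together with other homeodomain proteins as cofactors, and the state of the clusters is kept by Polycomb and trithorax complexes.

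Levels are given as CPM, read counts scaled to library size by the trimmed mean of M values, and, where genes are compared with each other, as CPM per kb of coding length. Each change is the log2 ratio of cholate to control, given with its standard error (SE, approximate). The adjusted p of a gene comes from edgeR's quasi-likelihood test, adjusted by Benjamini-Hochberg over 12385 tested genes, and a call needs that p to be under 0.01 and the fold to exceed 2.

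Total counts ran from 14337356 to 45285762 per library. A gene with 0 counts could still have had up to 3, which is 0.0616 CPM in the deepest library and 0.228 CPM in the shallowest. On the first principal component, which held 45.8% of the variance, control rats 5 and 9 and cholate rats 8 and 11 lay apart from the other 6 libraries. Control rat 5 was intermediate, with a score of 6.49 on this component against 55.6 to 81.2 in the other 3 and -48.1 to -25.7 in the 6. Genes with a coding length over 3 kb had a median log2 deviation from the control mean of -0.64 to -0.43 in those 3, -0.030 in control rat 5 and 0.014 to 0.19 in the 6. The 3 were the shallowest libraries, at 14337356 to 19883925 counts, while control rat 5 had 25957175 and the 6 had 25004778 to 45285762. The log2 change of each tested HOX gene is therefore given for all 10 libraries and for each side, a division made after seeing the data. Within each side the cholate rats still scored above the control rats. Scores were -31.0 to -25.7 against -48.1 to -39.8 in the 6 libraries, and 71.7 and 81.2 against 6.49 and 55.6 in the other 4. Within a side, diet and position on this component thus cannot be told apart.

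The cells carried the markers of colon epithelium at high levels: Epcam, an adhesion molecule of epithelia, stood at 2424 ± 271 CPM (SD, n = 5) in controls and 2266 ± 372 CPM (n = 5) on cholate. All 14 epithelial markers were tested. On cholate 3 were called higher (Krt20, Car1 and Car4, genes of mature surface colonocytes) and 0 lower. Of all genes tested, 1.10% were called higher and 2.12% lower. The 14 markers summed to 21418 to 35994 CPM in controls and 33218 to 50234 CPM on cholate. Of 17 markers of fibroblasts and stroma, summed at 7.62 to 10.2 CPM in controls and 5.62 to 10.3 CPM on cholate, 4 were tested and 0 called, with Col1a2 and Foxf2 without a read. Of 10 smooth muscle markers, summed at 171 to 262 CPM and 147 to 282 CPM, 4 were tested and Des was called lower. Lmod1 had no read, and Mylk and Smtn made up most of the sum. Of 10 markers of enteric neurons and glia, summed at 3.803 to 8.73 CPM and 2.55 to 4.10 CPM, 3 were tested and Ret was called lower. Of 7 endothelial markers, summed at 5.63 to 9.77 CPM and 3.91 to 6.61 CPM, 4 were tested and Vwf was called lower. Of 17 leukocyte markers, summed at 21.0 to 43.5 CPM and 18.3 to 41.4 CPM, 10 were tested and Cd7 was called lower.

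Reads of HOX genes came almost wholly from HOXB and HOXD. Of the 41 rows, 23 had no read in any of the 10 libraries, 7 had reads but too few to be tested, and 11 were tested: Hoxb5, Hoxb6, Hoxb7, Hoxb9 and Hoxb13 of HOXB, and Hoxd8, Hoxd9, Hoxd10, Hoxd11, Hoxd12 and Hoxd13 of HOXD. Over all 10 libraries the 10 HOXB rows held 168386 counts and the 9 HOXD rows 25481. The 9 HOXC rows together held 1 count, a single Hoxc6 read in control rat 5, and each HOXC gene has only 1 model in the annotation. Among the 7 rows with few reads, Hoxb3 had 52 counts over the control libraries and 63 over the cholate libraries, Hoxb4 18 and 21, Hoxb8 10 and 29, and Hoxb2 0 and 1. Hoxd4 had 5 counts over the controls and 0 on cholate. The rows with no read included Hoxb1, Hoxd1 and Hoxd3, the head end of both expressed clusters.

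HOXA could not be read from these counts. The rn6 annotation holds this cluster on chromosome 4 and again on an unplaced scaffold. On chromosome 4 itself, the HOXA paralogs 5 to 13 each have more than 1 gene model. The 11 HOXA paralog groups thus have 29 gene models, and all 11 have more than 1. Of those 29 models 27 had 0 counts; the 13 member rows held 26 counts, all of them in Hoxa13 (11 in controls, 15 on cholate). The sources used here do not say how reads that match more than 1 copy were counted, so these zeros do not show that HOXA genes were silent.

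In controls, HOXA aside, the HOX genes of high paralog number stood highest, with Hoxb13 far above all others. Hoxb13, the last gene of the HOXB cluster on the tail side and a known mark of distal colon, rectum and prostate, reached 768 ± 110 CPM per coding kb (SD, n = 5), a level above that of 98.9% of the 12385 genes tested. Hoxb9 followed at 75.3 ± 24.7, Hoxd13 at 55.4 ± 6.37, Hoxd11 at 23.3 ± 2.88, Hoxd10 at 21.3 ± 5.83 and Hoxd12 at 14.8 ± 3.83 CPM per coding kb. Then came Hoxd9 at 2.37 ± 1.21, Hoxb7 at 2.12 ± 0.898, Hoxb6 at 2.10 ± 1.11, Hoxd8 at 0.654 ± 0.193 and Hoxb5 at 0.625 ± 0.311 CPM per coding kb. The control values of Hoxb13 did not overlap those of Hoxb9, those of Hoxd13 did not overlap those of Hoxd11, those of Hoxd12 did not overlap those of Hoxd9, and those of Hoxb6 did not overlap those of Hoxd8. Hoxb9 and Hoxd13 overlapped, as did Hoxd11 with Hoxd10, Hoxd10 with Hoxd12, and every other pair of neighbours in this order. On cholate the first 5 places in the order were held by the same genes, while Hoxd12 went from place 6 to place 7, behind Hoxb6.

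**Figure D1:**
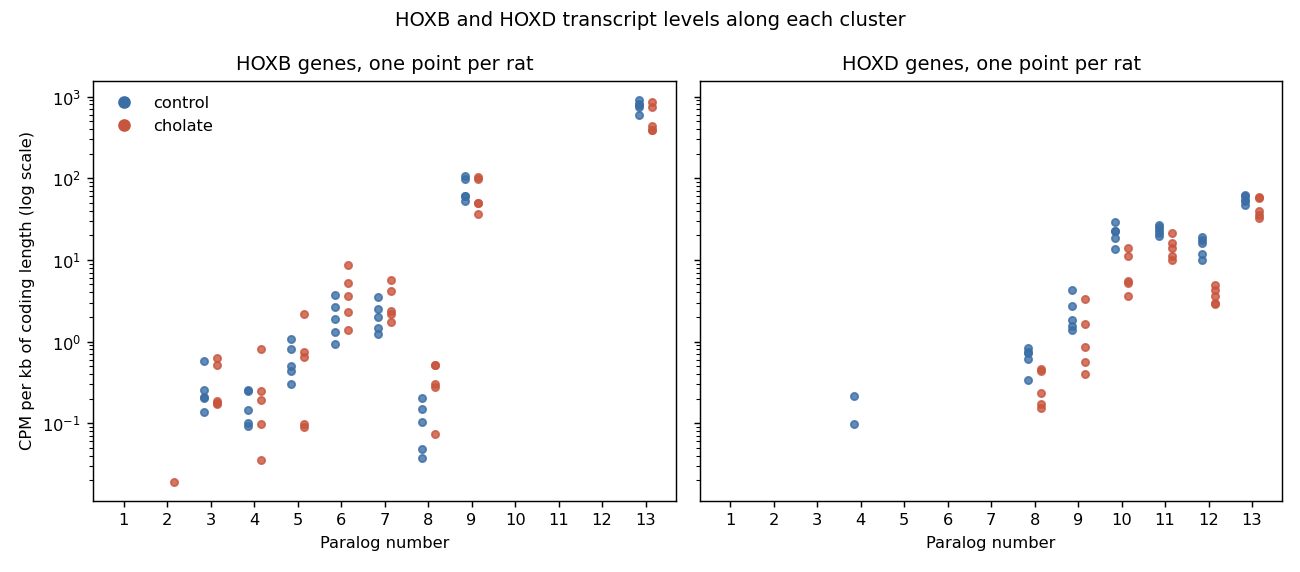
Level of each HOXB and HOXD gene in each rat, as CPM per kb of coding length on a log axis, against paralog number; control rats are blue, cholate rats red, and values of 0 are not drawn. Paralogs 9 to 13 stand highest in both clusters, and the cholate points of Hoxd12 lie wholly below the control points.

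The summed HOX level that could be read in each library was made up almost entirely of tail-side genes. HOXA, which could not be read here, entered the sum at 0.0068 ± 0.0083% in controls (SD, n = 5). The shares below are therefore not shares of all HOX expression. Paralogs 9 to 13 supplied 99.2% to 99.6% of the summed CPM per coding kb in control rats and 97.8% to 99.1% in cholate rats, so the ranges did not overlap. Hoxb13 alone supplied 79.3 ± 2.95% in controls and 78.5 ± 2.32% on cholate (SD, n = 5 each). Paralogs 5 to 8 supplied 0.331% to 0.723% in controls and 0.781% to 2.03% on cholate. Paralogs 1 to 4 supplied less than either, 0.0531 ± 0.0267% and 0.0840 ± 0.0385%. Because the shares of the paralog groups add up to the whole, the separation of paralogs 5 to 8 is largely that of paralogs 9 to 13 seen from the other side. The shares of paralogs 9 to 13 nearly met, at 99.19% in control rat 6 and 99.13% in cholate rat 11. HOXD supplied 12.3 ± 1.14% of the sum in controls and 10.9 ± 3.26% on cholate. The HOXD sum itself was 105.5 to 132.8 CPM per coding kb in controls and 55.8 to 103.9 on cholate. These ranges did not overlap but nearly met, at 105.5 in control rat 5 and 103.9 in cholate rat 11. Among all single genes tested, 6.80% had cholate values wholly below the control values and 6.30% wholly above. The shares are within a library, so scaling between libraries does not enter them, and neither they nor the sums were tested.

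The comparison of the diets asks whether dietary cholate went with a change in these genes. Of the 11 tested HOX genes, 1 was called lower on cholate and 0 higher, against 2.12% of all genes tested called lower and 1.10% called higher. The gene was Hoxd12. At an unadjusted p under 0.05, 4 were lower and 0 higher, where 14.4% of all genes tested were lower and 14.5% higher. With an adjusted p under 0.05 at any fold, 2 were lower (Hoxd12 and Hoxd10), where 7.28% of all genes were. The 6 tested HOXD genes all had negative log2 changes, with a median of -1.02, while of all genes tested 51.1% were negative and the median was -0.014; the 5 tested HOXB genes had a median of 0.20. Each of the 6 HOXD genes was negative in every one of the 19 to 21 alternative fits that included it. Because the cells are a bulk sample, fewer cells of a type and less RNA per cell cannot be told apart.

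The HOXD cluster lies on chromosome 3 of rn6, where its 9 rows span 97.4 kb on the plus strand from Hoxd13 at the low-coordinate end (chr3:61590376-61593692) to Hoxd1. Hoxd12 is the next gene (chr3:61597382-61598503), and Evx2, a homeobox gene of the even-skipped family, lies 8.78 kb beyond Hoxd13. The 250 bases before the start of the 4 genes at this end are shown because these genes hold most of the HOXD reads and lie side by side, yet differ in their log2 changes. They are RefSeq sequences of build GRCr8, not of rn6, on the plus strand, written 5′ to 3′, with capitals marking each CG dinucleotide, the site of DNA methylation in mammals. The windows are chr3:79977827-79978076 for Hoxd13, chr3:79984856-79985105 for Hoxd12, chr3:79992144-79992393 for Hoxd11 and chr3:80001697-80001946 for Hoxd10.
Hoxd13: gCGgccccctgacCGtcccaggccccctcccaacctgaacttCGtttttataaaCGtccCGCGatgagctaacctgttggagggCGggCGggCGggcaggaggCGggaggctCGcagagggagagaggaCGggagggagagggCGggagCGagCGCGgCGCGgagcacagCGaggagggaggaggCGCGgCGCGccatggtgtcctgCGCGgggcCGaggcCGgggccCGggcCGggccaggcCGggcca
Hoxd12: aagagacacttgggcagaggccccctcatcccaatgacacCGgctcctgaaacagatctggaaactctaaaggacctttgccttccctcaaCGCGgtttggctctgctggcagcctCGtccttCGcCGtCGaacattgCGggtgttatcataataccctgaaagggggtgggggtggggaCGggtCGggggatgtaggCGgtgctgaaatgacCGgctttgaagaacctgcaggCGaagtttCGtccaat
Hoxd11: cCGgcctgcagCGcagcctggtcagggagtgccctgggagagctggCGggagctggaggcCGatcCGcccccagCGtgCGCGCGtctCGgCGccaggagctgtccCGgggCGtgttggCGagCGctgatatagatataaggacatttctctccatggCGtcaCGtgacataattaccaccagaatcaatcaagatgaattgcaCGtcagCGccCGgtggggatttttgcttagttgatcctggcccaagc
Hoxd10: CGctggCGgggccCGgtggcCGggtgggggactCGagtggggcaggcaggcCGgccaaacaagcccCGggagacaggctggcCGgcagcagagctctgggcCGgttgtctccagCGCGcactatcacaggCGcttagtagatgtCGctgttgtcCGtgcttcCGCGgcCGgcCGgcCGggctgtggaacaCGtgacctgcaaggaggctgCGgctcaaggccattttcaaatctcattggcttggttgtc
Hoxd13 had 30 CG dinucleotides in this window, Hoxd12 14, Hoxd11 20 and Hoxd10 21. The median was 20 over the HOX windows found and 5 over 33469 RefSeq promoters. Of all promoters, 94.7% had fewer than Hoxd13 and 72.4% fewer than Hoxd12. Promoters were found for 20 of the 39 HOX symbols, in 21 windows; Hoxb9 and Hoxb13 were not among them. TTTATG, a core word bound by Caudal factors, and TTTACG, a core word of tail-side HOX proteins, were the only words searched, on both strands. They differ in 1 base. Neither was in the windows of the 6 genes Hoxd8 to Hoxd13, and over all promoters 11.4% held TTTATG and 2.58% held TTTACG.

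Hoxd12, a tail-side factor known from limb and hindgut patterning, was the HOX gene with the largest measured change. It stood at 15.2, 12.98, 9.51, 13.997 and 7.94 CPM in control rats 1, 2, 5, 6 and 9, and at 2.36, 3.49, 2.33, 2.94 and 4.02 CPM in cholate rats 3, 4, 7, 8 and 11. Every cholate rat was below every control rat, a separation seen downwards in 6.80% of all genes tested and in 1 of the 11 tested HOX genes, and upwards in 6.30% of all genes and in 0 HOX genes. The mean went from 11.9 ± 3.09 to 3.03 ± 0.732 CPM (SD, n = 5 each). Hoxd12 thus fell by 1.98 on the log2 scale (SE 0.25, adjusted p = 0.00116), a 3.96-fold lower level. Leaving out any 1 rat kept the call, at log2 changes of -2.11 to -1.88. In the 6 libraries on one side of the first component the log2 change was -2.32 (adjusted p = 0.0002), and in the other 4 it was -1.37 (adjusted p = 0.0738) and the call was lost; adjusted p ran from 3e-13 to 0.0738 over its 21 alternatives. The 2 controls of the smaller set, rats 5 and 9, had the lowest control values.

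Hoxd13, the outermost gene of the cluster and the one that HOXD limb malformations are best known for, held the most HOXD reads and had the smallest log2 change of the 6 tested HOXD genes. Its level was 62.0, 60.5, 46.4, 54.6 and 52.2 CPM in control rats 1, 2, 5, 6 and 9, and 34.9, 57.8, 39.2, 32.9 and 59.5 CPM in cholate rats 3, 4, 7, 8 and 11. The groups overlapped, since cholate rats 4 and 11 lay within the control range and rats 3, 7 and 8 below it. The log2 change was -0.30 (SE 0.19, adjusted p = 0.344), which did not pass the test, and it was -0.39 in the 6 libraries and -0.13 in the other 4.

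Hoxd11, which shares its paralog group with the kidney and limb gene Hoxa11, had a smaller log2 change than either of its neighbours, Hoxd12 and Hoxd10. Its values were 26.2, 22.9, 21.0, 19.4 and 25.2 CPM in the controls, in the order of rats given above, and 11.1, 13.98, 9.90, 16.0 and 21.2 CPM on cholate. Only cholate rat 11 reached into the control range. The log2 change was -0.67 (SE 0.21, adjusted p = 0.0581). In the 6 libraries it was -0.94 (adjusted p = 0.00368, with 0.00111 to 0.468 over its alternatives), under a fold of 2 and so not called, and in the other 4 it was -0.35 (adjusted p = 0.468).

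Hoxd10, a regulator of spinal motor neuron identity and hindlimb patterning, had the second most negative log2 change of the tested HOX genes. Control rats 1, 2, 5, 6 and 9 had 23.0, 18.8, 23.2, 13.997 and 30.1 CPM, and cholate rats 3, 4, 7, 8 and 11 had 5.72, 5.38, 3.67, 11.5 and 14.5 CPM. Only cholate rat 11 exceeded the lowest control, rat 6. The log2 change of -1.44 (SE 0.37) had an adjusted p of 0.0282 and was not called with all 10 libraries. Hoxd10 was called in 6 of 21 alternatives, whose adjusted p ran from 0.000207 to 0.0678. In the 6 libraries it fell by 1.89 on the log2 scale (adjusted p = 0.000842), and without cholate rat 11 it fell by 1.77 (adjusted p = 0.00902). In the other 4 libraries the log2 change was -1.08 (adjusted p = 0.0452) and was not called.

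Hoxd9 and Hoxd8, at the head side of the expressed stretch, were low. Hoxd9 had 1.82, 1.57, 2.76, 1.37 and 4.30 CPM in control rats 1, 2, 5, 6 and 9 and 0.554, 0.862, 0.401, 1.63 and 3.34 CPM in cholate rats 3, 4, 7, 8 and 11. In both diets the libraries of the smaller set had the highest values of this gene. Its log2 change was -0.86 (SE 0.57, adjusted p = 0.366), with -1.33 in the 6 libraries, -0.55 in the other 4 and -1.51 without cholate rat 11 (adjusted p = 0.0667). That of Hoxd8, at 0.298 to 0.738 CPM in controls and 0.134 to 0.406 CPM on cholate, was -1.18 (SE 0.41, adjusted p = 0.0787) and -1.38 in the 6 libraries; in the other 4 it had too few reads to be tested.

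**Figure D2:**
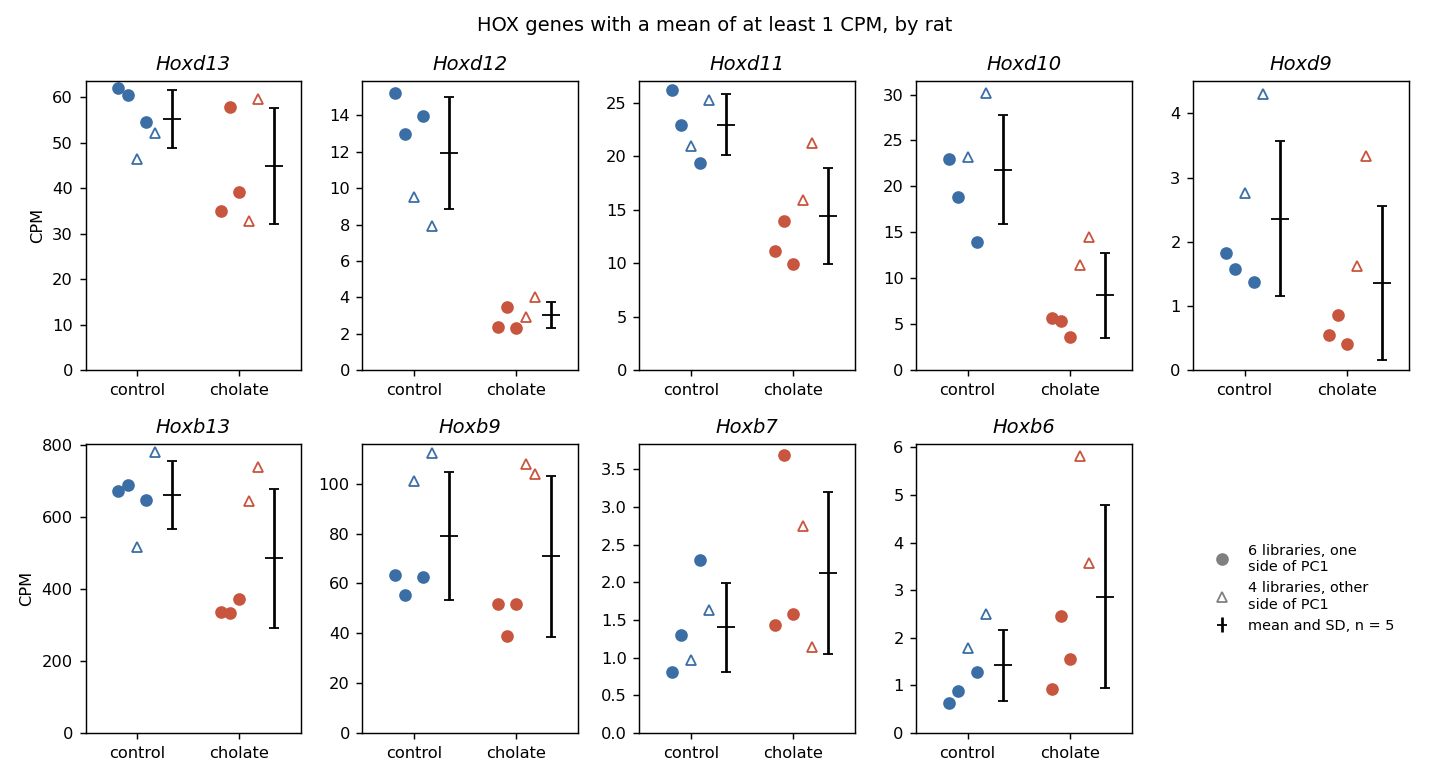
CPM of the 9 HOX genes that averaged 1 CPM or more in at least one diet, one symbol per rat, with the mean and SD over 5 rats beside them; filled circles are the 6 libraries on one side of the first principal component (PC1) and open triangles the other 4. The diets are apart for Hoxd12, at 7.94 to 15.2 CPM in controls and 2.33 to 4.02 CPM on cholate, while for Hoxb13 the 3 filled cholate points lie at 333 to 372 CPM and the 2 open ones at 645 and 739 CPM.

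Within the cluster the balance between genes also differed. For every 100 Hoxd13 reads of the same library there were 24.6, 21.5, 20.5, 25.7 and 15.2 Hoxd12 reads in the controls (rats 1, 2, 5, 6, 9), and 6.77, 6.04, 5.94, 8.95 and 6.76 on cholate (rats 3, 4, 7, 8, 11). All 5 cholate libraries were below all 5 controls. Relative to Hoxd11 the separation held as well, at 31.5 to 72.1 Hoxd12 reads per 100 Hoxd11 reads in controls and 18.4 to 25.0 on cholate. Hoxd10 per 100 Hoxd11 reads was also apart, at 72.1 to 119.4 in controls and 37.0 to 71.8 on cholate. For Hoxd11 per 100 Hoxd13 reads the groups overlapped, at 35.6 to 48.3 and 24.2 to 48.6, and Hoxd10 per 100 Hoxd13 reads overlapped too, at 25.7 to 57.7 and 9.31 to 34.9. Hoxd12 made up 8.03% to 16.1% of the summed HOXD level per coding kb in controls and 4.80% to 5.52% on cholate. These ratios do not depend on scaling between libraries, were chosen after the values were seen, and were not tested.

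**Figure D3:**
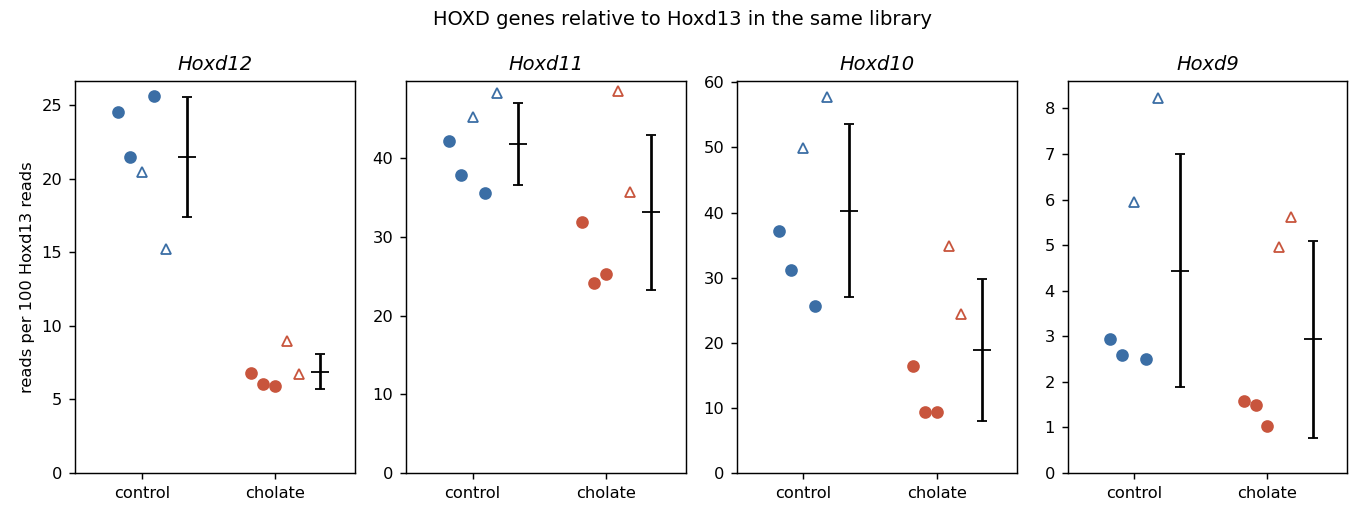
Reads of Hoxd12, Hoxd11, Hoxd10 and Hoxd9 per 100 Hoxd13 reads in the same library, one symbol per rat, with mean and SD over 5 rats; filled circles and open triangles mark the 6 and the 4 libraries on either side of PC1. Only for Hoxd12 are the diets apart, at 15.2 to 25.7 in controls and 5.94 to 8.95 on cholate.

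Some markers of other cell types were lower in the same cholate libraries. Des, the intermediate filament of muscle, fell from 38.2 ± 8.05 to 4.50 ± 1.67 CPM (log2 change -3.10, adjusted p = 0.000417), and Col1a1, a fibrillar collagen chain of stroma, stood at 2.95 ± 0.792 and 0.472 ± 0.308 CPM (adjusted p = 0.01004, not called; SD, n = 5 each). Vim, a filament of mesenchymal cells, stood at 3.90 ± 1.02 and 4.67 ± 0.688 CPM, and the stromal sum had overlapping ranges in the 2 diets. The muscle markers with the most reads had positive log2 changes that did not pass the test, Mylk at 117 ± 38.8 and 155 ± 70.1 CPM (log2 change 0.40, adjusted p = 0.502) and Smtn at 55.7 ± 7.36 and 60.04 ± 9.33 CPM (log2 change 0.11, adjusted p = 0.667). Myh11, also of the muscle list, stood at 10.6 ± 1.41 and 5.83 ± 1.22 CPM (log2 change -0.86, adjusted p = 0.0138, not called). Its cholate values lay wholly below its control values. Acta2, at 0.0131 and 0.158 CPM, was not tested. The part of these markers in the HOXD differences, and that of the rise in Krt20, Car1 and Car4, was not tested.

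The HOXB cluster, on chromosome 10 (plus strand, 184 kb from Hoxb13 at chr10:84031955-84034228 to Hoxb1), gave no call. Hoxb13 stood at 672, 689, 518, 649 and 779 CPM in control rats 1, 2, 5, 6 and 9 and at 335, 333, 372, 645 and 739 CPM in cholate rats 3, 4, 7, 8 and 11. Cholate rats 3, 4 and 7 were below every control, and rats 8 and 11 lay within the control range. Over all 10 libraries the log2 change was -0.45 (SE 0.24, adjusted p = 0.254). In the 6 libraries Hoxb13 stood at 670.0 ± 20.5 CPM in 3 controls and 347 ± 22.1 CPM in 3 cholate rats, and fell by 0.92 on the log2 scale (SE 0.086, adjusted p = 0.000259), just under a fold of 2. In the other 4 libraries the log2 change was 0.051 (SE 0.24, adjusted p = 0.926), and adjusted p over all its alternatives spanned these same 2 values. The difference between the sides, tested as an interaction term, was 1.04 with an adjusted p of 0.191 over all genes, and 0 of the 11 HOX genes and 0 of 12385 genes had an adjusted p under 0.01 in that test.

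Hoxb9, the next HOXB gene on the tail side and, HOXA aside, the second most abundant HOX transcript, did not pass the test. It had 63.4, 55.4, 101.3, 62.7 and 112 CPM in control rats 1, 2, 5, 6 and 9, and 51.7, 38.8, 51.8, 108 and 104 CPM in cholate rats 3, 4, 7, 8 and 11. The 4 libraries set apart by the first component were the 4 highest in both diets together. The log2 change was -0.16 (SE 0.32, adjusted p = 0.800), with -0.32 in the 6 libraries and -0.054 in the other 4.

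Hoxb7, Hoxb6 and Hoxb5, mid-cluster genes that pattern the trunk in the embryo, had positive log2 changes that did not pass the test. Hoxb7 had 0.806, 1.30, 0.969, 2.30 and 1.63 CPM in control rats 1, 2, 5, 6 and 9 and 1.44, 3.70, 1.58, 2.75 and 1.14 CPM in cholate rats 3, 4, 7, 8 and 11, with a log2 change of 0.61 (SE 0.40, adjusted p = 0.359), 0.64 in the 6 libraries and 0.55 in the other 4. Hoxb6 had 0.631, 0.881, 1.79, 1.28 and 2.503 CPM in the same controls and 0.923, 2.46, 1.55, 5.82 and 3.57 CPM in the same cholate rats, with a log2 change of 1.01 (SE 0.52, adjusted p = 0.229), 0.86 in the 6 libraries and 1.09 in the other 4. The diets overlapped for both, and cholate rat 8 had the highest Hoxb6 value. Hoxb5 ranged from 0.245 to 0.870 CPM in controls and from 0.0738 to 1.75 CPM on cholate, with a log2 change of 0.20 (SE 0.76, adjusted p = 0.8996) that turned negative in 3 of 20 alternatives; it was -0.64 without cholate rat 8, -0.55 in the 6 libraries and 0.83 in the other 4. Hoxb5 and Hoxb6 overlap a long noncoding RNA on the other strand, and the sources used here do not say whether counting was strand-aware, so their low counts are uncertain.

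**Figure D4:**
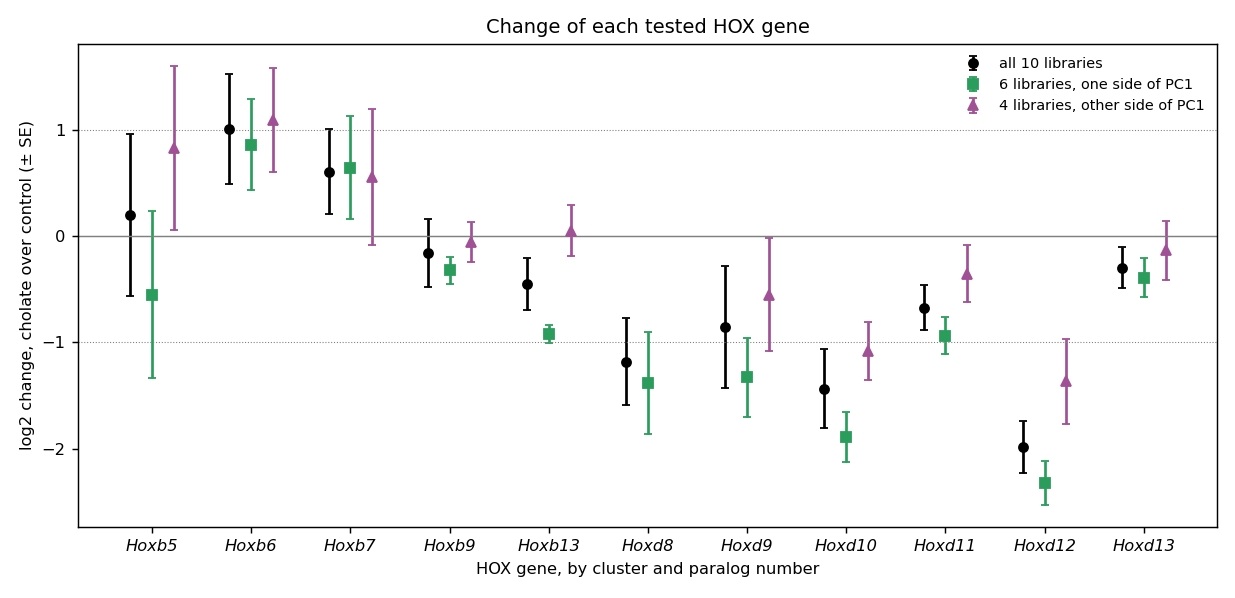
Log2 change, cholate over control, of each tested HOX gene with its SE, for all 10 libraries (black), the 6 on one side of PC1 (green) and the other 4 (purple, Hoxd8 not tested there); dotted lines mark a fold of 2. The 6 HOXD genes lie below 0 in each fit, from -0.30 for Hoxd13 to -1.98 for Hoxd12 in all 10 libraries, and Hoxb13 lies at -0.92 in the 6 libraries and 0.051 in the 4.

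The number of HOX genes called lower depended on the libraries and the tool. It was 2 (Hoxd12 and Hoxd10) in the 6 libraries, where 5.48% of all genes were called lower, 2 with the side of the first component as a second term (4.82% of all genes) and 0 in the other 4 libraries (0.428%). DESeq2 called the same 2 genes (4.21% of all genes), as did the edgeR exact test (4.10%), and limma-voom with quality weights called 4, adding Hoxd9 and Hoxd8 (6.84%). No HOX gene was called higher in any of these fits.

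The HOX cofactors were measured at low to moderate levels and none passed the test for a call. Of 9 listed genes 6 were tested, with 0 higher and 0 lower, all 6 negative and a median log2 change of -0.71. At an unadjusted p under 0.05, 3 were lower (14.4% of all genes tested). In the 6 libraries 2 of 7 tested were called lower, where 5.48% of all genes were. Meis3 had the smallest adjusted p, with 1.40 ± 0.252 CPM in controls and 0.598 ± 0.319 CPM on cholate (SD, n = 5 each; log2 change -1.29, adjusted p = 0.0328). Meis1 had no read in any library.

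Factors that set intestinal and colonic identity upstream of or beside HOX genes also gave no call. Of 24 listed genes 15 were tested, 6 with a positive and 9 with a negative log2 change, with a median of -0.22, and 2 had an unadjusted p under 0.05, both lower (14.4% of all genes tested). Cdx1 and Cdx2, the Caudal factors of intestinal epithelium, stood at 115 ± 12.8 and 140.2 ± 26.2 CPM in controls and at 152 ± 45.3 and 177 ± 47.2 CPM on cholate (adjusted p = 0.199 and 0.281). Isx, an intestinal homeobox repressor of retinoid uptake genes, stood at 11.9 to 20.0 CPM in controls and 0.123 to 4.63 CPM on cholate (log2 change -2.81, SE 0.63, adjusted p = 0.015), below the controls in all 5 rats but not called.

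Of the Polycomb and trithorax regulators 36 of 37 were tested, with 0 higher (1.10% of all genes tested), 1 lower (2.12%) and a median log2 change of -0.14. The 1 was Cbx7, a chromodomain subunit of Polycomb repressive complex 1, which fell from 4.83 ± 1.18 to 1.76 ± 0.391 CPM (SD, n = 5 each; log2 change -1.45, SE 0.26, adjusted p = 0.00519). All 5 cholate values of Cbx7 lay below the control values, but 7 of the 10 fits without a rat lost the call, as did the 4 libraries alone. Ezh2, the histone methyltransferase of Polycomb repressive complex 2, stood at 33.3 ± 4.90 and 37.6 ± 8.28 CPM (log2 change 0.18, adjusted p = 0.564). Its paralog Ezh1, named after its values were seen, stood at 84.8 ± 13.8 and 52.7 ± 6.15 CPM (log2 change -0.69, adjusted p = 0.0122).

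Retinoic acid and fibroblast growth factors are the signals that set HOX expression along the embryonic axis. This list held the most calls, 2 lower (2.12% of all genes tested) and 0 higher (1.10%) of 15 tested of 25 listed. Its median log2 change was -0.94. Aldh1a1, an enzyme that makes retinoic acid from retinal, stood at 359, 356, 116, 308 and 147 CPM in control rats 1, 2, 5, 6 and 9 and at 9.15, 3.14, 15.3, 15.3 and 6.07 CPM in cholate rats 3, 4, 7, 8 and 11. It fell by 4.72 on the log2 scale (SE 0.52, adjusted p = 0.000722). Fgfr2, a fibroblast growth factor receptor, fell from 26.7 ± 8.40 to 8.55 ± 1.90 CPM (log2 change -1.64, SE 0.26, adjusted p = 0.00318), a call that 5 of the 10 fits without a rat lost. The retinoic acid receptors Rara and Rarg, with Fgf9 and Fgfr3, were named after their values were seen. For all 4 the cholate values lay below the control values, with log2 changes of -1.10, -0.94, -2.41 and -0.93 and adjusted p of 0.0336, 0.0354, 0.0185 and 0.00356. Such a separation was seen downwards in 7 of the 15 tested genes of the list and in 6.80% of all genes tested. Aldh1a3, a related enzyme named in the same way, had a positive log2 change of 3.51 (adjusted p = 0.0281) with overlapping diets, 4.39 in the 6 libraries, -0.022 in the other 4 and 2.51 without cholate rat 3. Rara, Rarg, Fgf9 and Fgfr3 were called lower in the 6 libraries, where 5.48% of all genes were. In the other 4 libraries none of the list was called, and 0.428% of all genes were called lower.

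Log2 changes of genes next to the clusters lay on both sides of 0. Of 26 listed 20 were tested, 9 with a positive and 11 with a negative log2 change and a median of -0.047. There was 1 call, lower, where 2.12% of all genes tested were called lower. The call was Ttll6, a tubulin polyglutamylase gene 32.4 kb from Hoxb13, which fell from 19.0 ± 3.65 to 8.63 ± 2.51 CPM (SD, n = 5 each; log2 change -1.15, SE 0.23, adjusted p = 0.00865); 7 of the 10 fits without a rat lost this call. Around HOXD, 3 flanking genes named after their values were seen gave log2 changes of -0.48 for Evx2 (adjusted p = 0.387), 0.15 for Lnp, 95.5 kb from the cluster (adjusted p = 0.704), and 0.27 for Mtx2, 68.4 kb from it on the other side (adjusted p = 0.314). Of other homeobox genes of the gut, 10 of 31 were tested, with 0 calls and a median of -0.20; Tgif1, a TALE homeobox repressor, had the smallest adjusted p (43.1 ± 7.91 and 28.4 ± 5.64 CPM, log2 change -0.60, adjusted p = 0.0435). It was the only gene of that list with an unadjusted p under 0.05, a level that 14.4% of all genes tested reached downwards.

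**Figure D5:**
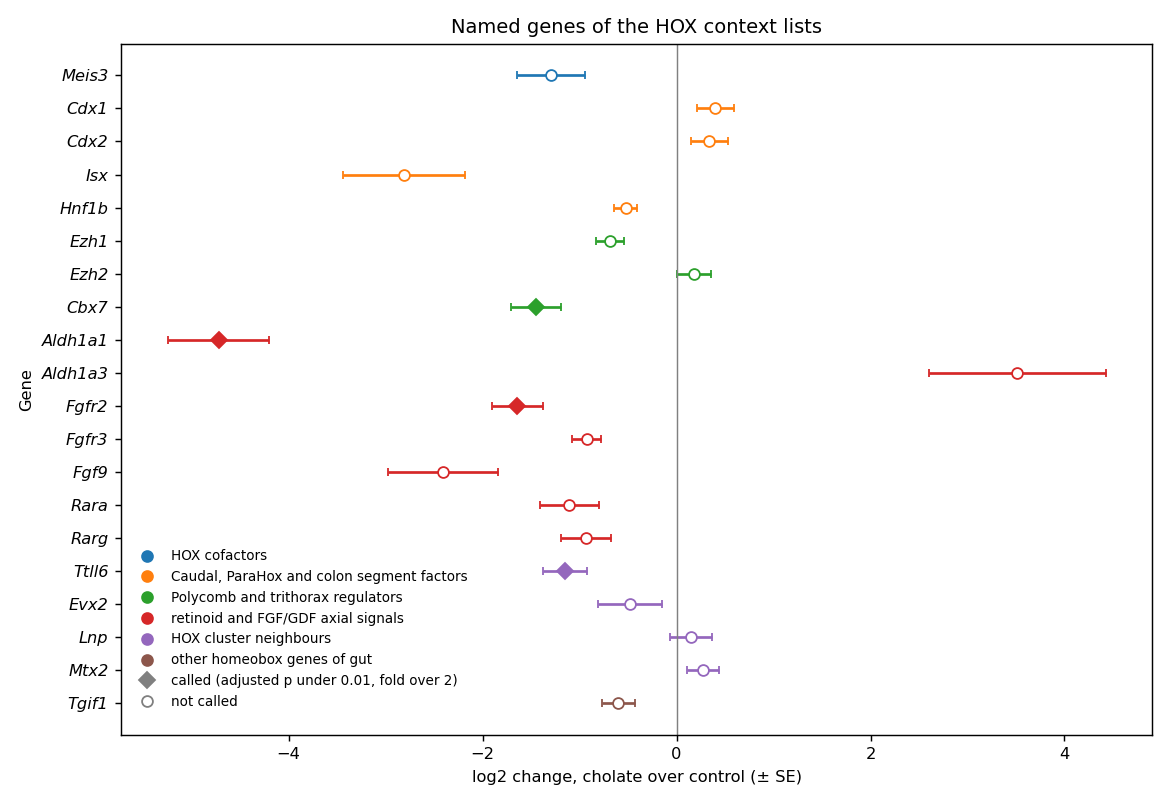
Log2 change, cholate over control, with SE, of the named genes of the 6 lists; filled diamonds are the 4 called genes and open circles those not called. Aldh1a1 (-4.72), Fgfr2 (-1.64), Cbx7 (-1.45) and Ttll6 (-1.15) were called, and Cdx1, Cdx2 and Ezh2 lie between 0.18 and 0.40.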

How the data were processed

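Stranded poly(A) RNA libraries of distal colon epithelial cells, 1 per rat, were sequenced by the authors. Per the submitters' processing notes and design text, reads were demultiplexed with bcl2fastq 1.8.4, aligned to rn6 with BWA 0.7.12-r1039 (BWA-MEM, which is not splice-aware) and scaled with edgeR 3.16.2. The deposited table gives each gene's raw read counts and the authors' normalized signal, a CPM on the scaled library size from which only their scaling factors were read. Gene lengths and annotation coordinates are the other deposited columns; every length equals the merged coding bases in the deposited annotation, so it is a coding length. The sources used here name neither the counting program nor its strand setting.

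Genes passed filterByExpr, grouped by diet, and counts were scaled by the trimmed mean of M values and tested by the edgeR 4.0.16 quasi-likelihood test with robust estimation in R 4.3.3, diet being the only term. Calls needed an adjusted p under 0.01 with a log2 change beyond 1 in size, the criteria of the series' design text. The SE, approximate, is the size of the log2 change divided by the root of F. Alternatives used limma 3.58.1, DESeq2 1.42.0, other scalings and filters, and left out each rat. The method was also run on simulated data, with an outcome that is not reported here. Diet was the only effect in that simulation, which lacked the division of the libraries along the first component. The HOX genes and the lists (cofactors, segment factors, Polycomb and trithorax, axial signals, cluster neighbours, other homeobox genes, cell type markers) were chosen with earlier results of these data known. HOX genes that averaged 1 CPM or more in a diet, or were called, are described in every rat, and each list by its called members or, with none, the member with the smallest adjusted p, plus Cdx1, Cdx2, Meis1 and Ezh2; some genes are not reported here. Counting error is the only error the limit of 3 counts covers.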

Additional observations from a re-analysis of the deposited data

How the results depend on the processing

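The limits are these. With 5 rats per diet and a common coefficient of variation of 34.3%, small changes of low genes could not be called, and Hoxb5 and Hoxd8, under 1 CPM in most rats, rest on few reads. HOXA was not measurable against an annotation that holds the cluster more than once. The division of the libraries along the first component was made after seeing the data and leaves 2 rats per diet on the smaller side, whose fit rests on a spread pooled over genes. No paired analysis was possible because the rat numbers of the control and cholate groups are all different.

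For single HOX genes, 233 of the alternative values kept direction and call, 9 gained a call, 1 lost it (Hoxd12 in the 4 libraries) and 4 turned sign. For the named genes of the lists, 388 kept both, 44 gained a call, 23 lost it and 1 turned sign. Both sets of values include the main fit judged at an adjusted p under 0.05 and under 0.01 at any fold. In those only the call could change, not the direction. The sign turned for Hoxb5 with limma-voom quality weights (-0.91), without cholate rat 8 (-0.64) and in the 6 libraries (-0.55), and in the 4 libraries for Hoxb13 (0.051) and Aldh1a3 (-0.022). Leaving out a rat gave -0.64 to 0.52 for Hoxb5. The cause was not tested.

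HOX genes called lower numbered 1 with all 10 libraries. They numbered 2 at an adjusted p under 0.05 at any fold, with DESeq2, with the edgeR exact test, in the 6 libraries and with the side as a second term, 4 with limma-voom, 0 in the 4 libraries, and 1 to 2 leaving out a rat; 0 were called higher in each. All genes called numbered 136 higher and 262 lower. They numbered 802 and 902 at an adjusted p under 0.05 at any fold, 266 and 522 with DESeq2, 303 and 847 with limma-voom, 246 and 508 with the exact test, 310 and 693 in the 6 libraries, 60 and 52 in the 4, and 232 and 597 with the side as a term. At an adjusted p under 0.01 at any fold 228 were higher, and leaving out a rat gave 59 to 152 higher and 109 to 298 lower.

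Called cofactors went from 0 to 1 at an adjusted p under 0.05, without a low-count filter, with DESeq2, limma-voom, the exact test and the side as a term, to 2 in the 6 libraries, and to 0 to 1 leaving out a rat. Called segment factors went from 0 to 2 at an adjusted p under 0.05, both lower, to 1 lower with DESeq2, limma-voom, the exact test and the side as a term, to 1 higher (Hnf4g) in the 6 libraries, and to 0 to 1 leaving out a rat. Called Polycomb and trithorax genes went from 1 to 3 (1 higher) at an adjusted p under 0.05, to 0 in the 4 libraries, and to 0 to 1 leaving out a rat. With a mean of at least 5 CPM the count was 0. Cbx7, at 4.83 CPM in controls and 1.76 CPM on cholate, fell below that filter and was not tested there. Called axial signals went from 2 to 8 at an adjusted p under 0.05, 6 with DESeq2 and with the exact test, 9 with limma-voom (1 higher in each of these), 8 in the 6 libraries, 0 in the 4, 7 with the side as a term, and 1 to 3 leaving out a rat. Called neighbours went from 1 to 3 (2 higher) at an adjusted p under 0.05, 2 with limma-voom, in the 6 libraries and with the side as a term, 0 in the 4, and 0 to 1 leaving out a rat. Of the other homeobox genes 1 passed at an adjusted p under 0.05. The share of all genes called lower also depended on the setting. It was 2.12% with all 10 libraries, 7.28% at an adjusted p under 0.05, 4.21% with DESeq2 and 4.10% with the exact test. With limma-voom it was 6.84%, in the 6 libraries 5.48%, in the 4 libraries 0.428% and with the side as a term 4.82%.

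Ranking control levels by CPM without length moved 2 genes, Hoxb6 and Hoxb7, which traded places, and put the HOXD share of the summed level in controls at 13.4% in place of 12.3%.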
